A study of Mus musculus with 14 samples.

Results

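The cytosolic ribosomal protein genes encode the proteins that, with ribosomal RNA, build the 2 subunits of the ribosome in the cytoplasm. Members were the entries whose mouse gene symbol is Rpl or Rps followed by a number, with or without a final a, x or l, together with Rplp0, Rplp1, Rplp2 and Rpsa. Pseudogene entries were not members. The rule gave 80 genes of 36401 entries: 31 of the small subunit, 42 of the large subunit, 3 of the stalk and 4 paralogs that end in l. Rpl41 and Rps4l were not analysed here. The RNA came from the small intestine of C57Bl6 mice, given as male and aged 6 to 12 weeks, with ileum taken 5 to 8 cm from the cecum and jejunum 5 to 8 cm from the pylorus. In each region there were 3 libraries of crypt cells, 2 of cells selected by LGR5, a receptor of crypt base columnar stem cells, and 2 of cells sorted as CD44+/CD24lo/CD166+, here called CD166, which makes 14 libraries in 6 groups. No allele or agent is named for any group, and the labels do not say how the LGR5 cells were recognised, how the crypt cells were selected or whether the libraries came from separate mice. P-values therefore measure the spread between these libraries, which may be technical.

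Ribosomal proteins are made in amounts that match one another, because each ribosome takes a single copy of most of them. Their messenger RNAs start with a cytosine in a stretch of pyrimidines, the 5′ terminal oligopyrimidine tract, through which the TOR pathway sets their translation, while Myc and RNA polymerase I activity go with their transcription in growing cells. Proteins left outside ribosomes are degraded or, as RPL5 and RPL11 do with the 5S RNA, bind MDM2 and stabilise p53. In the intestinal crypt the stem cells and their early progeny divide fast and make many ribosomes.

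RefSeq promoter windows (GRCm38.p6) were found for 59 of the 80 genes, with 71 start sites, since 10 genes had more than 1. The bases from 10 before to 20 after the start are shown for members with a long pyrimidine stretch, because that stretch is the family's best known regulatory sequence, and for a pair without one. Capitals mark the longest run of C or T in each window, read on the gene's strand. Such a run may lie anywhere in the window, and that of Rpl39 begins after the start. It is therefore not necessarily a 5′ terminal oligopyrimidine tract.
Rpl15, chr14:18270967-18270996, minus strand: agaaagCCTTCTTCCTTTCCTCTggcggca
Rps6, chr4:86857348-86857377, minus strand: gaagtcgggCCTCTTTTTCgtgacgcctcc
Rpl38, chr11:114668570-114668599, plus strand: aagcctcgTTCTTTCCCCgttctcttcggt
Rplp2, chr7:141447641-141447670, plus strand: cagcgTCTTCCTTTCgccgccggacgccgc
Rpl39, chrX:37085203-37085232, minus strand: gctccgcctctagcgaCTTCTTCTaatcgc
Rps28, chr17:33824543-33824572, minus strand: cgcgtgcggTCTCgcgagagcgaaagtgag
Rps4x, chrX:102189372-102189401, minus strand: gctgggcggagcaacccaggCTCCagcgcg
Rpl15 had the longest run shown, 17 bases, and Rps28 and Rps4x had runs of 4 bases. A run of at least 8 C or T lay in this window at 23 of 71 member starts (32.4%) and at 11.2% of all 32851 start sites in the table. The median longest run was 6 bases for the members and 4 bases for all starts. In the whole windows of 300 bases (250 before the start and 50 after), searched on both strands, CCGGAAG, the core bound by ETS factors such as GABP, lay at 35.2% of member starts and 8.86% of all starts. CACGTG, the E-box that Myc binds, lay at 11.3% of member starts and 7.15% of all starts. A CCGGAAG match on the opposite strand reads CTTCCGG on the gene's strand. It therefore begins with pyrimidines and can overlap a C or T run. Starts of a gene share sequence. These matches describe letters and were not tied to any difference in RNA below.

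Levels are in CPM, counts scaled to a common library total, after TMM scaling, which sets libraries to a common level of most genes. Reads were 50 bases long, and many ribosomal protein genes have processed pseudogenes that carry nearly the same sequence. In GENCODE transcripts, 47 of the 80 members had at least 50% of their 50-base windows also in another gene, with a median of 55% and 3 members with none. Reads of those members could have been split between copies, so levels are compared between libraries and not between genes. Of the 80 members, 77 had enough counts to be tested. Rpl10l was at 0 in all 14 libraries, Rpl39l was above 0 only in ileum crypt 1, at 0.11 CPM, and in jejunum crypt 2, at 0.18 CPM, and Rpl3l stayed at or below 0.24 CPM. These 3 paralogs are known from testis or muscle.

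Several libraries stood apart and touch the results below. Total counts ran from 6295828 to 20380369 per library. The library labelled ileum crypt 3 was close to jejunum crypt 1: the median absolute log2 difference over tested genes was 0.119, against 0.219 to 0.689 for the other crypt pairs. It had 25.8 CPM of the ileal bile acid binding gene Fabp6, as jejunum crypt 1 did (25.1 CPM), while ileum crypt 1 and 2 had 2688 and 1987 CPM. Xist, expressed from an inactive X chromosome, was at 2.78 to 3.12 CPM in ileum crypt 2 and 3 and jejunum crypt 1 and 3 and at 201 to 1675 CPM in the other 10 libraries, although the labels give male. Entries named as ribosomal protein pseudogenes were above 0 in 28 and 26 of 155 cases in ileum crypt 2 and 3, against 60 to 92 elsewhere. Jejunum crypt 2 had the highest sum of 16 lymphocyte markers, 11831 CPM, against 208 to 3454 CPM in the other crypt libraries.

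The 80 genes together took 4.54% to 6.92% of all counts in the crypt libraries, 7.07% to 10.57% in the LGR5 libraries and 7.01% to 11.23% in the CD166 libraries, where the share is of the total count before TMM scaling. In ileum crypt the shares were 5.90%, 6.41% and 4.54%, and in jejunum crypt 4.73%, 6.92% and 5.18%. Ileum LGR5 had 9.14% and 7.07%, and jejunum LGR5 10.57% and 10.10%. Ileum CD166 had 9.97% and 11.23%, and jejunum CD166 7.01% and 9.90%. All 8 sorted libraries lay above all 6 crypt libraries, and ileum LGR5 2, jejunum CD166 1 and jejunum crypt 2, with 7.07%, 7.01% and 6.92%, were close to the boundary. The sorted mean exceeded the crypt mean by 3.76 percentage points, and by 3.50 to 4.10 points when any 1 library was left out. Group means were 5.62% ± 0.97 (SD, n = 3) in ileum crypt, 5.61% ± 1.16 (n = 3) in jejunum crypt, 8.10% ± 1.46 (n = 2) in ileum LGR5, 10.34% ± 0.33 (n = 2) in jejunum LGR5, 10.60% ± 0.89 (n = 2) in ileum CD166 and 8.45% ± 2.04 (n = 2) in jejunum CD166. In bulk samples a different mix of cells and a different amount of these RNAs per cell cannot be told apart.

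**Figure D1:**
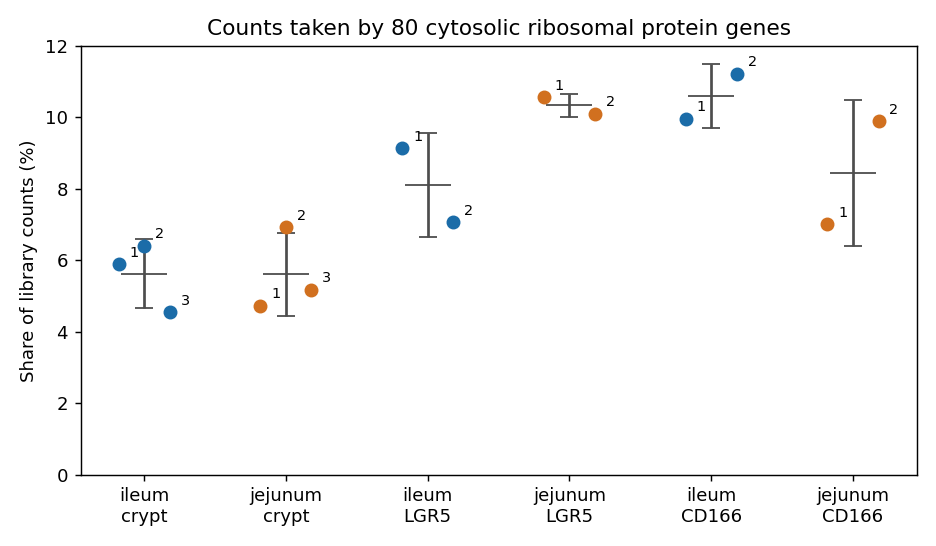
Share of all counts (percent, y axis) taken by the 80 ribosomal protein genes in each of the 14 libraries, by group, with 1 point per library numbered by replicate, horizontal dashes for group means and error bars for the SD. The 8 sorted libraries lie between 7.01% and 11.23%, above the 6 crypt libraries at 4.54% to 6.92%.

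The increase of the sorted over the crypt libraries was spread over both subunits. Differences were tested per gene with edgeR's quasi-likelihood test over all 14750 tested genes, with Benjamini-Hochberg adjustment and a call at an adjusted p under 0.05, and errors are standard errors of the log2 difference. In LGR5 against crypt, averaged over the regions, 34 of 77 members were called higher and none lower (49 higher and none lower at an unadjusted p under 0.05), while 13.0% of all tested genes were called higher and 18.5% lower. The members' median was log2 0.56 (1.47-fold), against -0.01 for all tested genes, and 75 of 77 members were above 0. In CD166 against crypt 48 of 77 members were called higher and none lower (58 and none at an unadjusted p under 0.05), with 13.6% of all tested genes called higher and 16.5% lower. The median was log2 0.71 (1.63-fold), against 0.02 for all genes, and 76 of 77 members were above 0. Both comparisons use the same 6 crypt libraries, so they are not independent of each other.

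By subunit, 10 of 31 small subunit and 22 of 42 large subunit genes were called in LGR5, with medians of log2 0.55 and 0.57. In CD166 the counts were 17 of 31 and 29 of 42, with medians of 0.74 and 0.67. Of the 3 stalk genes, Rplp0 and Rplp1 were called in both. In all, 32 members were called in both comparisons, Rpl28 and Rpl23 only in LGR5, 16 only in CD166 and 27 in neither. Members of up to 1000 bases had medians of 0.54 in LGR5 and 0.71 in CD166, while other genes of that length had -0.12 and 0.13. Among the 30 tested members with under 50% of shared windows, 12 were called in LGR5 and 19 in CD166. Without overlap of the libraries, 27 members were higher in LGR5 than in crypt (9.64% of all tested genes were) and 32 in CD166 (10.4% of all tested genes).

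The counts of calls depended on single libraries. Without jejunum crypt 2 the call was made for 64 members in LGR5 (14.7% of all tested genes were called higher) and 68 in CD166 (16.1%), and 46 and 55 members did not overlap, against 10.9% and 12.1% of all genes. With ileum LGR5 1, jejunum LGR5 1 or jejunum LGR5 2 left out, 6, 9 and 15 members were called in LGR5, and the share of all tested genes called higher was 5.29%, 6.23% and 4.79%. Without ileum CD166 2 or jejunum CD166 2, 21 and 19 were called in CD166, with 7.58% and 7.44% of all tested genes. Without ileum crypt 2 and 3 the counts were 12 and 22 (6.57% and 7.13% of all genes were called higher), and without these and jejunum crypt 2 they were 61 and 68 (12.9% and 13.8%). Without ileum crypt 1 and jejunum crypt 2, 63 and 67 members were called higher (17.5% and 19.9%) and Rps23 lower in both comparisons. Without the 4 crypt libraries low in Xist, 36 and 40 were called higher (20.3% and 20.6%), and Rps27l was called lower in LGR5. Where a group had 1 library left, that library was assumed to vary like those of the other groups. With totals in place of TMM scaling, which moved the median of all genes in LGR5 against crypt to 0.13, the counts were 51 and 52, and the share of all tested genes called higher was 19.5% in LGR5 and 15.3% in CD166.

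**Figure D2:**
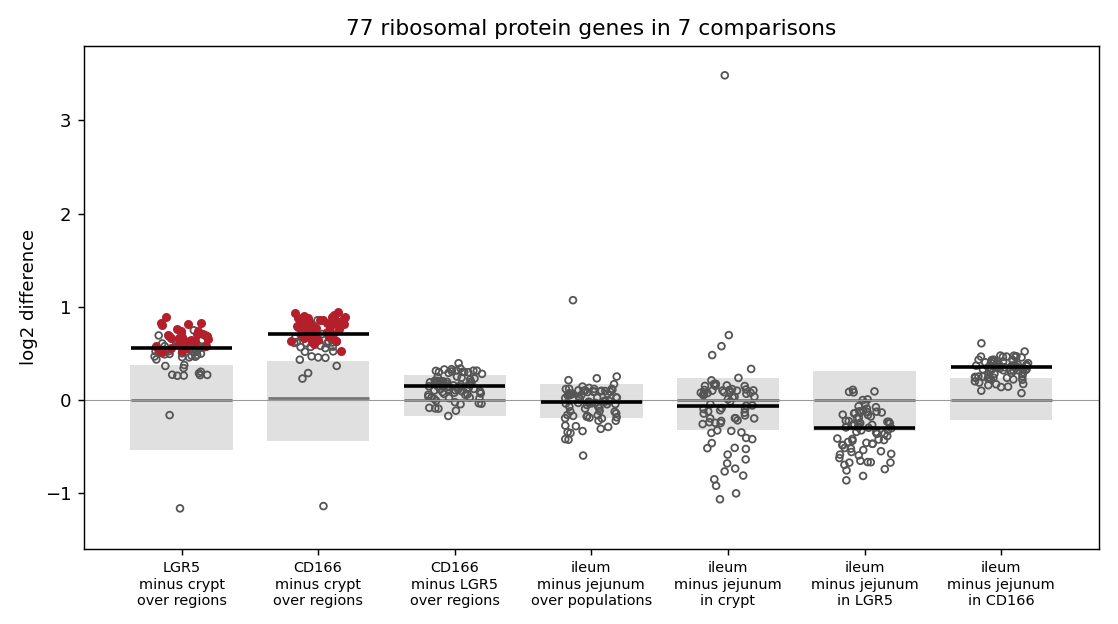
Log2 difference (y axis) of each of the 77 tested members in 7 comparisons, filled where called and open where not, with a black line at the members' median and a grey box and line for the quartiles and median of all tested genes. In LGR5 and CD166 against crypt, 75 and 76 of 77 members lie above 0, and Rps23 lies lowest, at -1.17 and -1.14.

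Markers of other cells moved with the same contrasts. The sum of 16 stem cell markers was 1682 to 7658 CPM in crypt, 13168 to 26277 CPM in LGR5 and 15364 to 18145 CPM in CD166. The sum of 20 enterocyte markers was 10528 to 57016 CPM in crypt against 2307 to 3044 CPM in LGR5 and 2637 to 3699 CPM in CD166. Lymphocyte markers summed to 208 to 11831 CPM in crypt and to 11.7 to 38.9 CPM and 9.70 to 72.4 CPM in the sorted populations, and 6 red blood cell markers to 42.9 to 429 CPM against at most 5.30 CPM. Paneth cell markers, 16 genes, were at 5429 to 10349 CPM in LGR5 and at 33899 to 54593 CPM in CD166, and 6704 to 46871 CPM in crypt. Enteroendocrine markers, 22 genes, summed to 344 to 1176 CPM in crypt, 372 to 820.1 CPM in LGR5 and 1877 to 12759 CPM in CD166, where 16 of them were called higher than in crypt (median log2 2.38). Tuft cell markers, 12 genes, summed to 104 to 195 CPM in crypt, 214 to 801 CPM in LGR5 and 368 to 1002 CPM in CD166, with 5 called higher in LGR5 (median log2 1.05) and 10 in CD166 (median 2.11). Goblet cell markers, 14 genes, overlapped between the populations (7394 to 15588 CPM in crypt, 2291 to 26601 CPM in LGR5 and 7520 to 15744 CPM in CD166). Cell cycle genes, 20 in the list, summed to 933 to 2595 CPM in crypt, 2574 to 3266 CPM in LGR5 and 2873 to 3351 CPM in CD166. Immediate early genes, 17 transcripts that react fast to handling and stimulation, summed to 637 to 1123 CPM in crypt, 1440 to 4123 CPM in LGR5 and 1025 to 4030 CPM in CD166. Their part in the higher ribosomal protein levels was not tested.

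Among small subunit genes, Rps28 had the largest called difference in LGR5. Its product lies near the channel through which the messenger RNA leaves the small subunit, and the gene is on the list of Diamond-Blackfan anaemia, a disease of red cell formation caused by variants in ribosomal protein genes. The lowest, median and highest crypt libraries had 267, 342 and 403 CPM. LGR5 libraries had 653 and 455 CPM in the ileal and 752 and 701 CPM in the jejunal libraries, and CD166 libraries 585 and 836 CPM in the ileal and 488 and 628 CPM in the jejunal libraries. All 8 sorted libraries lay above all 6 crypt libraries, with ileum LGR5 2 and jejunum CD166 1 the lowest of their populations. The difference was 1.85-fold in LGR5 (log2 0.89 ± 0.18, adjusted p = 0.00391) and 1.84-fold in CD166 (log2 0.88 ± 0.18, adjusted p = 0.00405). The LGR5 call was kept with any 1 library left out (largest adjusted p 0.0294).

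Rps20, a protein of the small subunit's head, had 465, 547 and 676 CPM in its lowest, median and highest crypt libraries. It had 1046 and 709.8 CPM in the ileal and 1163 and 1001 CPM in the jejunal libraries in LGR5 cells, and 1051 and 1396 CPM in the ileal and 752 and 1009 CPM in the jejunal libraries in CD166 cells. The sorted and crypt libraries did not overlap, and ileum LGR5 2 and jejunum CD166 1 were again the lowest sorted libraries. Rps20 was higher in LGR5 (log2 0.82 ± 0.18, 1.77-fold, adjusted p = 0.00596) and in CD166 (log2 0.91 ± 0.18, 1.88-fold, adjusted p = 0.00339), and both calls were kept with any 1 library left out. Rps4x, the X-linked copy of a gene that in humans also has a Y-linked copy, ranged from 689.7 to 1502 CPM in crypt, 1608 to 2424 CPM in LGR5 and 1661 to 2313 CPM in CD166. Its sorted libraries all lay above the crypt libraries, and jejunum crypt 2 was its lowest library. It was higher in LGR5 (log2 0.80 ± 0.21, 1.74-fold, adjusted p = 0.016) and in CD166 (log2 0.70 ± 0.21, 1.63-fold, adjusted p = 0.0277). The LGR5 call of Rps4x ended without ileum LGR5 1 or jejunum LGR5 1 (largest adjusted p 0.0886), and the CD166 call ended without ileum crypt 1 or 3, jejunum LGR5 1 or 2 or any CD166 library (largest adjusted p 0.109).

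Rps6, whose product is phosphorylated by the S6 kinases downstream of TOR and whose start carries the 10-base run shown above, had 962, 1204 and 1473 CPM in its lowest, median and highest crypt libraries. LGR5 cells had 1956 and 1539 CPM in the ileal and 2312 and 2075 CPM in the jejunal libraries, and CD166 cells 2045 and 2592 CPM in the ileal and 1509 and 2199 CPM in the jejunal libraries. The populations did not overlap with crypt, though jejunum CD166 1 lay close to the highest crypt library, jejunum crypt 2. Both differences were called (log2 0.70 ± 0.19, 1.63-fold, adjusted p = 0.0158 in LGR5, and log2 0.78 ± 0.19, 1.72-fold, adjusted p = 0.00912 in CD166). Without ileum LGR5 1, jejunum LGR5 1 or jejunum LGR5 2 the LGR5 call ended (largest adjusted p 0.0783), as did the CD166 call without jejunum CD166 2 (adjusted p = 0.0548). Rpsa, a small subunit protein also known as the laminin receptor, ranged from 1489 to 2266 CPM in crypt, 2157 to 3274 CPM in LGR5 and 2455 to 4173 CPM in CD166. Ileum LGR5 2 fell within the crypt range, and the other 7 sorted libraries lay above it. It was higher in LGR5 (log2 0.64 ± 0.19, 1.56-fold, adjusted p = 0.0249) and in CD166 (log2 0.83 ± 0.19, 1.78-fold, adjusted p = 0.00708). The LGR5 call of Rpsa ended without ileum crypt 1 or 3, ileum LGR5 1 or either jejunum LGR5 library (largest adjusted p 0.134).

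Rps19, the gene most often affected in Diamond-Blackfan anaemia, and Rps21, a small protein of the subunit's body, were called in CD166 and not in LGR5. Rps19 had 268, 361 and 648 CPM in its lowest, median and highest crypt libraries, 670.2 and 416 CPM in the ileal and 753 and 802 CPM in the jejunal libraries in LGR5, and 759.8 and 981 CPM in the ileal and 468 and 786 CPM in the jejunal libraries in CD166. Jejunum crypt 2 was its highest crypt library and lay among the sorted libraries. The difference was log2 0.69 ± 0.27, adjusted p = 0.073 in LGR5 and log2 0.87 ± 0.27, adjusted p = 0.0312 in CD166. Rps21 had 149, 217 and 391 CPM in crypt, 353 and 222 CPM in the ileal and 455 and 479.9 CPM in the jejunal libraries in LGR5, and 462 and 517 CPM in the ileal and 271 and 505 CPM in the jejunal libraries in CD166, with jejunum crypt 2 again highest in crypt. It gave log2 0.64 ± 0.28, adjusted p = 0.098 in LGR5 and log2 0.89 ± 0.28, adjusted p = 0.0313 in CD166. Without jejunum crypt 2, Rps19 gave log2 0.90 ± 0.21, adjusted p = 0.00648 in LGR5 and Rps21 log2 0.84 ± 0.22, adjusted p = 0.0132. Both CD166 calls ended without ileum crypt 3, jejunum crypt 1 or 3, jejunum LGR5 2, ileum CD166 1 or 2 or jejunum CD166 2, and also without ileum crypt 1 for Rps19 and ileum crypt 2 for Rps21 (largest adjusted p 0.146 and 0.157). Whether LGR5 and CD166 differ for these genes is given further below by their own comparison.

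In the large subunit, Rpl37 and Rpl39 had the largest called differences in LGR5. RPL37 and the small protein RPL39 lie at the tunnel through which the new protein leaves the ribosome. Rpl37 had 321, 407 and 488 CPM in its lowest, median and highest crypt libraries, 735 and 549 CPM in the ileal and 814 and 772 CPM in the jejunal libraries in LGR5, and 766 and 916 CPM in the ileal and 541 and 779 CPM in the jejunal libraries in CD166. No sorted library overlapped with crypt. It was higher in LGR5 (log2 0.82 ± 0.17, 1.77-fold, adjusted p = 0.00536) and in CD166 (log2 0.88 ± 0.17, 1.85-fold, adjusted p = 0.00355), and both calls were kept with any 1 library left out. Rpl39 had 303, 439 and 801 CPM in crypt, 743 and 591 CPM in the ileal and 1009.9 and 999 CPM in the jejunal libraries in LGR5, and 932 and 1146 CPM in the ileal and 548 and 968 CPM in the jejunal libraries in CD166. Jejunum crypt 2, its highest crypt library, exceeded both ileum LGR5 libraries and jejunum CD166 1, and the other 5 crypt libraries lay below all sorted ones. Both calls were made (log2 0.81 ± 0.26, 1.76-fold, adjusted p = 0.034 in LGR5, and log2 0.93 ± 0.26, 1.9-fold, adjusted p = 0.0194 in CD166). The LGR5 call of Rpl39 ended without ileum crypt 2 or 3, jejunum crypt 1 or 3 or any LGR5 library (largest adjusted p 0.119), and the CD166 call without ileum CD166 2 or jejunum CD166 2 (largest adjusted p 0.105).

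Rpl15, a protein bound within the core of the large subunit and a Diamond-Blackfan gene, carries the 17-base run shown above. Its lowest, median and highest crypt libraries had 573, 740.3 and 815 CPM, and its sorted libraries 1197 and 962 CPM in the ileal and 1383 and 1268 CPM in the jejunal libraries in LGR5, and 1238 and 1469.6 CPM in the ileal and 1001 and 1327 CPM in the jejunal libraries in CD166. All sorted libraries exceeded all crypt libraries. The difference was log2 0.76 ± 0.16, 1.69-fold, adjusted p = 0.00589 in LGR5 and log2 0.83 ± 0.16, 1.78-fold, adjusted p = 0.00366 in CD166, and the LGR5 call was kept with any 1 library left out. Rpl32 had the largest called difference in CD166. It had 567, 817 and 1519 CPM in crypt, 1322 and 987 CPM in the ileal and 1819 and 1867 CPM in the jejunal libraries in LGR5, and 1811 and 1938 CPM in the ileal and 1008 and 1982 CPM in the jejunal libraries in CD166. Jejunum crypt 2 was higher than ileum LGR5 1 and 2 and jejunum CD166 1, and the other crypt libraries were below all sorted ones. Rpl32 was called in CD166 (log2 0.94 ± 0.29, 1.92-fold, adjusted p = 0.0301) and not in LGR5 (log2 0.75 ± 0.29, adjusted p = 0.0709). Its CD166 call ended without ileum crypt 3, jejunum crypt 3, ileum CD166 1 or 2 or jejunum CD166 2 (largest adjusted p 0.157), and without jejunum crypt 2 its LGR5 difference was log2 0.98 ± 0.22, adjusted p = 0.00523.

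Rpl37a, a zinc finger protein of the large subunit, was at 376 to 572 CPM in crypt, 558 to 894 CPM in LGR5 and 578 to 1235 CPM in CD166. Its CD166 libraries lay above all crypt libraries, and ileum LGR5 2 lay within the crypt range. It was higher in CD166 (log2 0.90 ± 0.20, 1.86-fold, adjusted p = 0.00692), a call kept with any 1 library left out, and in LGR5 (log2 0.62 ± 0.20, adjusted p = 0.0372). Rpl3, which reaches towards the site of peptide bond formation, was at 1325 to 1761 CPM in crypt and 2139 to 2766 and 2028 to 2918 CPM in LGR5 and CD166. It did not overlap and was higher in LGR5 (log2 0.72 ± 0.16, adjusted p = 0.00631) and in CD166 (log2 0.78 ± 0.16, adjusted p = 0.00429). Rpl22, a protein that many cells can do without and that developing T cells need, was at 222 to 305 CPM in crypt, 349.9 to 508 CPM in LGR5 and 322 to 518 CPM in CD166. It too did not overlap, with log2 0.71 ± 0.15, adjusted p = 0.00565 in LGR5 and log2 0.67 ± 0.15, adjusted p = 0.00721 in CD166. The calls of Rpl3 and Rpl22 were kept with any 1 library left out.

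Rpl10, added late in the cytoplasm when the large subunit becomes ready for translation, was at 409 to 538 CPM in crypt, 570.1 to 723 CPM in LGR5 and 528 to 804 CPM in CD166. Jejunum CD166 1 lay just below the highest crypt library, and the other sorted libraries above it. Its differences were among the smaller called ones (log2 0.52 ± 0.14, adjusted p = 0.0179 in LGR5, and log2 0.53 ± 0.14, adjusted p = 0.0164 in CD166). They were lost without ileum LGR5 1, jejunum LGR5 1 or jejunum LGR5 2 in LGR5 and without ileum CD166 2 or jejunum CD166 2 in CD166 (largest adjusted p 0.0951 and 0.089). Rpl38, whose loss in mice changes the axial skeleton, was at 232 to 452 CPM in crypt, 361 to 564 CPM in LGR5 and 352 to 734 CPM in CD166, with jejunum crypt 2 the highest crypt library. It was called in CD166 (log2 0.70 ± 0.20, adjusted p = 0.0241) and not in LGR5 (log2 0.51 ± 0.20, adjusted p = 0.0766). The CD166 call ended without ileum CD166 2 or jejunum CD166 2 (largest adjusted p 0.125), and without jejunum crypt 2 the LGR5 value was log2 0.60 ± 0.18, adjusted p = 0.0263.

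**Figure D3:**
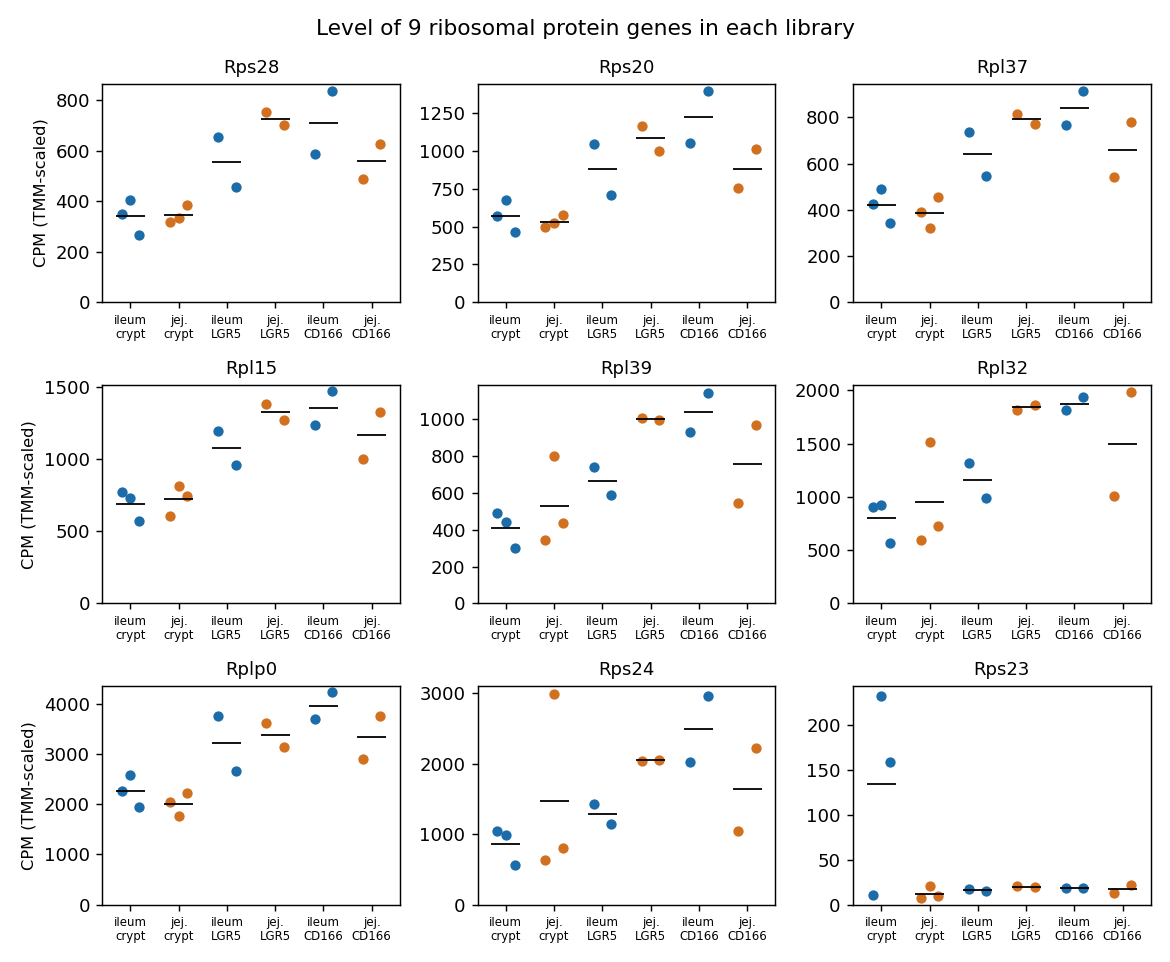
TMM-scaled CPM (y axis, from 0) of 9 members in each library, with 1 point per library and a line at the group mean. The crypt libraries lie below the sorted libraries for Rps28, Rps20, Rpl37, Rpl15 and Rplp0, jejunum crypt 2 lies among the sorted libraries for Rpl39 and Rpl32 and above them for Rps24, and Rps23 is high in ileum crypt 2 and 3.

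The stalk recruits and activates elongation factors, with RPLP0 as its base on the large subunit and RPLP1 and RPLP2 as its arms. Rplp0 had 1768, 2135 and 2583 CPM in its lowest, median and highest crypt libraries, 3759 and 2662 CPM in the ileal and 3611 and 3129 CPM in the jejunal libraries in LGR5, and 3693 and 4231 CPM in the ileal and 2906 and 3759 CPM in the jejunal libraries in CD166. All sorted libraries were above crypt, and ileum crypt 2 was the highest crypt library. The difference was log2 0.62 ± 0.18, 1.54-fold, adjusted p = 0.0213 in LGR5 and log2 0.77 ± 0.18, 1.7-fold, adjusted p = 0.00785 in CD166. Rplp1 had 914, 1066 and 1322 CPM in crypt, 1838 and 1184 CPM in the ileal and 2165 and 2000.1 CPM in the jejunal libraries in LGR5, and 1951 and 2308 CPM in the ileal and 1575 and 2085 CPM in the jejunal libraries in CD166. Ileum LGR5 2 fell within its crypt range. It was higher in LGR5 (log2 0.70 ± 0.19, 1.62-fold, adjusted p = 0.016) and in CD166 (log2 0.85 ± 0.19, 1.81-fold, adjusted p = 0.00598). The LGR5 calls of Rplp0 and Rplp1 ended without ileum LGR5 1, jejunum LGR5 1 or jejunum LGR5 2 (largest adjusted p 0.122 and 0.104), and their CD166 calls were kept with any 1 library left out. Rplp2 had 166, 199 and 411 CPM in crypt, with ileum crypt 2 highest, 309 and 201 CPM in the ileal and 319.8 and 307 CPM in the jejunal libraries in LGR5, and 318 and 339 CPM in the ileal and 251 and 308 CPM in the jejunal libraries in CD166. The 3 populations overlapped, and no difference was called (log2 0.26 ± 0.21, adjusted p = 0.358 in LGR5, and log2 0.36 ± 0.21, adjusted p = 0.21 in CD166). Ileum crypt 2 and 3 had 411 and 303 CPM of Rplp2, and the other crypt libraries 166 to 213 CPM. Those other libraries lay below all CD166 libraries and overlapped with LGR5 only at ileum LGR5 2.

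RPL5 and RPL11 travel with the 5S RNA and are the arm that links ribosome assembly to p53. Rpl11 had 338, 434 and 457 CPM in its lowest, median and highest crypt libraries, 605 and 511 CPM in the ileal and 660.2 and 604 CPM in the jejunal libraries in LGR5, and 687 and 899 CPM in the ileal and 498 and 748 CPM in the jejunal libraries in CD166. No sorted library overlapped with crypt, and both differences were called (log2 0.52 ± 0.16, 1.43-fold, adjusted p = 0.0341 in LGR5, and log2 0.76 ± 0.16, 1.7-fold, adjusted p = 0.00576 in CD166). Its LGR5 call ended without ileum crypt 1 or 3, jejunum crypt 1 or any LGR5 library (largest adjusted p 0.135). Rpl5 had 1050.3, 1258 and 3148 CPM in crypt, with jejunum crypt 2 above every other library, 1993 and 1602 CPM in the ileal and 2187 and 2329 CPM in the jejunal libraries in LGR5, and 2362 and 2802 CPM in the ileal and 1457 and 2587 CPM in the jejunal libraries in CD166. It was not called (log2 0.43 ± 0.30, adjusted p = 0.283 in LGR5, and log2 0.61 ± 0.29, adjusted p = 0.137 in CD166), and without jejunum crypt 2 it gave log2 0.73 ± 0.18, adjusted p = 0.00899 and log2 0.90 ± 0.18, adjusted p = 0.0029. The 17 genes listed for Diamond-Blackfan anaemia are themselves members. Of all tested members 44.2% were called in LGR5 and 62.3% in CD166, and of all tested genes 13.0% and 13.6% were called higher. Of the 17 listed genes, 7 were called in LGR5 (41.2%, median log2 0.57) and 12 in CD166 (70.6%, median 0.76). Without jejunum crypt 2, where 64 and 68 of the 77 members were called, 16 of the 17 were called in both comparisons. With each other library left out the counts reached down to 2 and 5.

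Jejunum crypt 2 ordered the members differently from the other crypt libraries of its region. Against the mean of jejunum crypt 1 and 3, the members' log2 ratios in this library had a median of 0.30 and an SD of 0.96. They were above 1 for 25 of 77 members (32.5%, against 17.3% of all tested genes) and below -1 for 4 members (5.19%, against 10.9%). The extremes, chosen after their values were seen, were Rpl34 and Rpl4, both of the large subunit. Rpl34 had 1734 CPM there, above all 13 other libraries at 264 to 1070 CPM, and Rpl4 had 787 CPM, below all 13 others at 1635 to 3049 CPM. The small subunit's counts over those of the large subunit were 0.888 in jejunum crypt 2 and 0.681 to 0.811 in the other libraries. Its high lymphocyte sum, its enterocyte sum of 57016 CPM, the highest of the 14, and its stem cell and cell cycle sums of 1682 and 933 CPM, the lowest of the 14, stood beside this; their part in it was not tested.

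Rps24 and Rpl35, after Rps23 the members with the largest spread between the 6 group means (SD of log2 CPM 0.57 and 0.55), showed the same library. Rps24, a small subunit protein and Diamond-Blackfan gene, had 564, 901 and 2986 CPM in its lowest, median and highest crypt libraries, 1433 and 1145 CPM in the ileal and 2040.1 and 2059 CPM in the jejunal libraries in LGR5, and 2021 and 2963 CPM in the ileal and 1050.5 and 2223 CPM in the jejunal libraries in CD166. Jejunum crypt 2 was the highest of the 14 libraries and the next crypt library had 1042 CPM, below all sorted ones. The test gave no call with all libraries (log2 0.52 ± 0.41, adjusted p = 0.356 in LGR5, and log2 0.84 ± 0.41, adjusted p = 0.148 in CD166) and both calls without jejunum crypt 2 (log2 1.02 ± 0.25, adjusted p = 0.00922, and log2 1.32 ± 0.25, adjusted p = 0.00232). Rpl35 had 271, 464 and 1212 CPM in crypt, with jejunum crypt 2 highest, and 512 to 999.9 and 571 to 1242 CPM in the sorted populations. It too was called in neither comparison (log2 0.54 ± 0.35, adjusted p = 0.261, and log2 0.87 ± 0.35, adjusted p = 0.0841) and in both without that library (log2 0.90 ± 0.24, adjusted p = 0.0129, and log2 1.22 ± 0.24, adjusted p = 0.00268). Rps27, a zinc finger protein with 98.7% of its windows in other genes, was likewise uncalled with all libraries (log2 0.52 ± 0.27, adjusted p = 0.168, and log2 0.66 ± 0.27, adjusted p = 0.0868) and called without it (log2 0.74 ± 0.20, adjusted p = 0.0153, and log2 0.87 ± 0.20, adjusted p = 0.00638).

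Rpl21 and Rpl29, both of the large subunit, were among the 3 least variable members between the 6 group means, with an SD of log2 CPM of 0.23 and 0.28. Rpl21 had 246 to 662 CPM in crypt, 452 to 586 CPM in LGR5 and 458 to 602 CPM in CD166. The populations overlapped, and it was not called (log2 0.27 ± 0.22, adjusted p = 0.361 in LGR5, and log2 0.29 ± 0.22, adjusted p = 0.335 in CD166). The overlap came from ileum crypt 2 and 3, with 662 and 521 CPM. The other crypt libraries had 246 to 448 CPM and lay below all sorted libraries. Rpl29 was not called either (log2 0.49 ± 0.19, adjusted p = 0.0662 in LGR5, and log2 0.47 ± 0.19, adjusted p = 0.0818 in CD166).

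**Figure D4:**
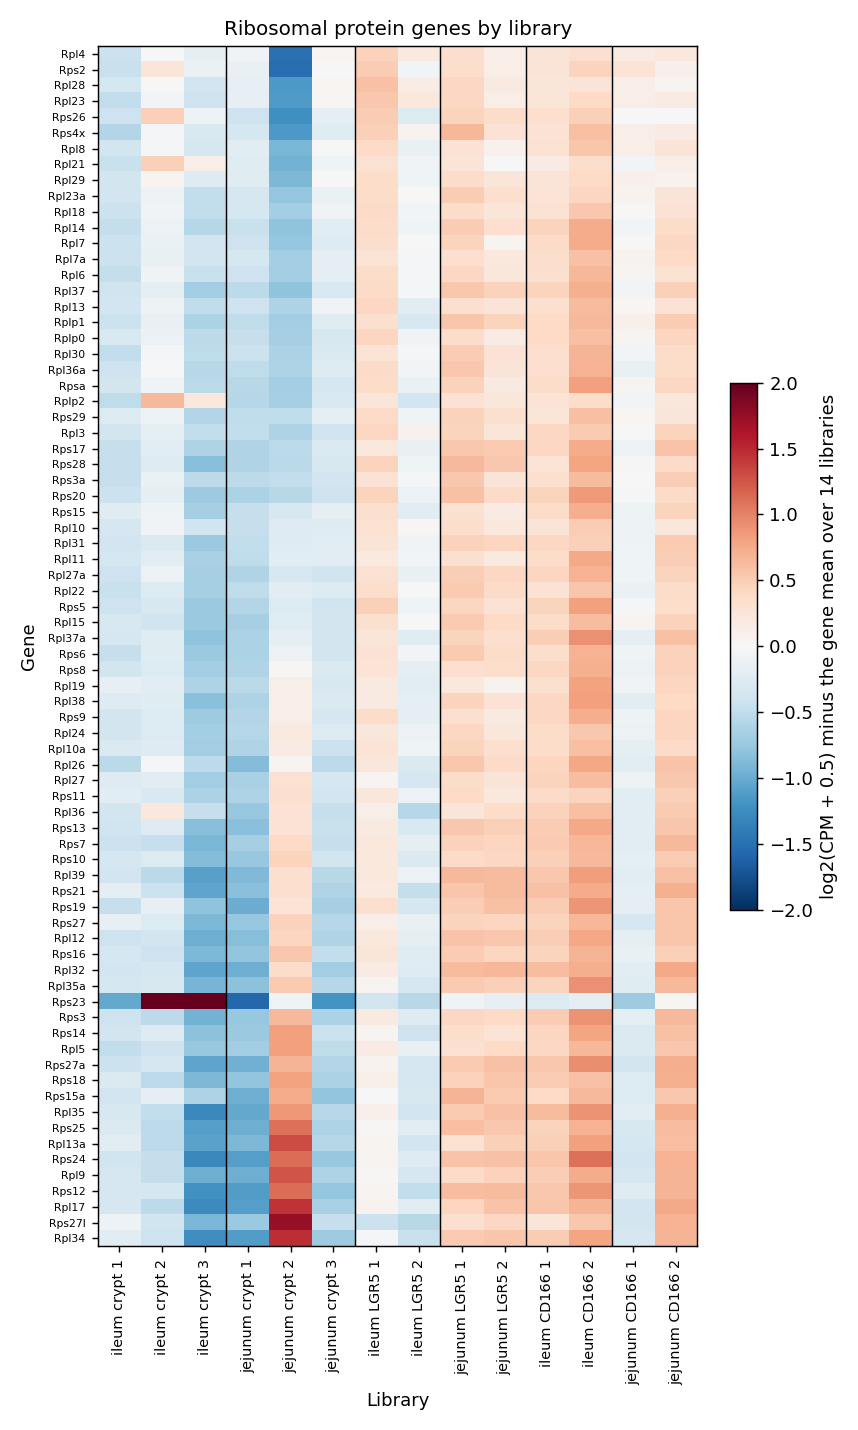
Log2(CPM + 0.5) of 76 of the 77 tested members (rows, ordered by the ratio of jejunum crypt 2 to jejunum crypt 1 and 3) relative to its mean over the 14 libraries (columns), with colours that stop at -2 and 2, so that Rps23 in ileum crypt 2 and 3 lies beyond the scale. Most members are lower in the crypt columns than in the sorted columns, and jejunum crypt 2 holds members far above and far below their means.

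Rps23, a protein at the decoding centre of the small subunit, stood apart from the other members by the size of 1 difference. It had 232 and 159 CPM in ileum crypt 2 and 3 and 6.98 to 22.1 CPM in the other 12 libraries. Rplp2, Rpl21 and Rps26 were also higher in ileum crypt 2 and 3 than in the other crypt libraries, by less. For Rps26 the values were 641 and 428 CPM against 197 to 408 CPM. The same 2 libraries had the fewest pseudogene entries above 0, with 8.64 and 5.18 CPM over all 155 entries against 58.2 to 135 CPM elsewhere. How reads that match several copies were assigned in these libraries is not given in the sources used here. With all libraries Rps23 was called in neither comparison (log2 -1.17 ± 0.62, adjusted p = 0.172 in LGR5, and log2 -1.14 ± 0.62, adjusted p = 0.182 in CD166). Without ileum crypt 2 and 3 and jejunum crypt 2 it was called higher in both, by log2 0.93 and 0.94. Without ileum crypt 1 it was called lower in both, by log2 -1.45 and -1.42. Between regions Rps23 was called higher in ileum when ileum crypt 1 was left out, both over the populations (log2 1.25) and in crypt (log2 4.03), and its direction therefore followed which crypt libraries entered the fit.

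CD166 and LGR5 cells were compared directly to ask whether the 2 sorts differ. No member was called in CD166 against LGR5 (none at an unadjusted p under 0.05, and none with DESeq2 or limma-voom), while 1.61% of all tested genes were. The median was log2 0.14 (1.10-fold), with 67 of 77 members above 0 and values from -0.17 to 0.39. No member had CD166 and LGR5 libraries that did not overlap, and the share of all tested genes without overlap is not given here. The smallest adjusted p was 0.715. For Rps19 and Rps21, called in CD166 alone against crypt, the difference between the sorts was log2 0.18 ± 0.30, adjusted p = 0.914 and log2 0.25 ± 0.31, adjusted p = 0.866. Members called in CD166 and not in LGR5 are therefore not shown to differ between the sorts.

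Ileum and jejunum are the comparison named in the study's title. Averaged over the 3 populations, no member was called (none at an unadjusted p under 0.05), while 5.01% of all tested genes were. The members' median was log2 -0.02, with 36 of 77 above 0 and a smallest adjusted p of 0.313. In crypt no member was called, and 0.0% of all tested genes were. At an unadjusted p under 0.05 there were 2 members, DESeq2 called Rps23 (2.19% of all tested genes were called), and limma-voom called none. The absence of calls over all genes depended on single crypt libraries: 4.17% of all tested genes were called without ileum crypt 3, which resembles jejunum crypt 1, 0.679% without jejunum crypt 1, 5.87% without both and 0.553% without ileum crypt 1. No member was called in the first 3 of these fits, and Rps23 was called without ileum crypt 1. The median was -0.07 in crypt. No crypt group lay apart from the other for any member, in either direction. Ileum crypt 3 was close to jejunum crypt 1 over tested genes (median absolute log2 difference 0.119), so this overlap says little about the members. The share of all tested genes without overlap is not given here.

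In LGR5 and CD166 the regional differences had opposite signs for most members and none was called. In LGR5 the median was log2 -0.31, with 5 of 77 members above 0, and 0.698% of all tested genes were called. The ileal LGR5 libraries were lower than the jejunal ones without overlap for 45 members, against 28.9% of all tested genes in that direction. In CD166 the median was 0.35, with 77 of 77 above 0, and 0.0203% of all tested genes were called. The ileal CD166 libraries were higher without overlap for 19 members, against 17.6% of all tested genes. No member reached an unadjusted p under 0.05 in either population. The joint test of the interaction of region and population called no member (1 at an unadjusted p under 0.05, smallest adjusted p 0.83), and 0.0136% of all tested genes. The spread between the libraries of a group differed: the median SD of log2 CPM over the members was 0.29 in ileum LGR5 and 0.39 in jejunum CD166, against 0.09 in jejunum LGR5 and 0.18 in ileum CD166, and over all tested genes 0.17, 0.20, 0.13 and 0.16.

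For Rps28 the values given above put both ileal LGR5 libraries below both jejunal ones (log2 -0.39 ± 0.28, adjusted p = 0.612), and in CD166 the regions overlapped (log2 0.35 ± 0.28, adjusted p = 1). With the LGR5 groups fitted alone, Rpl34, Rps15a, Rps25, Rps27l and Rps12 were called lower in ileum (5.64% of all tested genes were), and leaving out jejunum CD166 1 or jejunum CD166 2 moved the CD166 median to 0.08 and 0.64. Without the 4 crypt libraries low in Xist, each region had 1 crypt library, ileum crypt 1 and jejunum crypt 2, so the crypt comparison was between 2 libraries, with the spread taken from the other groups. In that fit Rpl34, Rpl9, Rps27l and Rpl17 were called lower in ileum crypt (4.25% of all tested genes were), and Rpl34 and Rps27l over the populations (6.07%).

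Paralogs replace a ribosomal protein in some tissues or are made under stress. Rps27l, a paralog of Rps27 that p53 induces, had 76.3, 107 and 483 CPM in its lowest, median and highest crypt libraries, with jejunum crypt 2 highest by far, 107 and 97.3 CPM in the ileal and 179.7 and 192 CPM in the jejunal libraries in LGR5, and 171 and 208 CPM in the ileal and 112 and 234 CPM in the jejunal libraries in CD166. It was called in neither comparison (log2 -0.17 ± 0.44, adjusted p = 0.803 in LGR5, and log2 0.23 ± 0.43, adjusted p = 0.723 in CD166). Without jejunum crypt 2 it was called higher in CD166 (log2 0.81 ± 0.21, adjusted p = 0.0132) and not in LGR5 (log2 0.43 ± 0.21, adjusted p = 0.144). None of the 4 tested paralogs outside the symbol rule was called in LGR5 or CD166 against crypt. Among them Rpl22l1, whose product can take the place of RPL22, was at 38.9 to 142 CPM in crypt and 54.7 to 128 CPM in the sorted libraries, and Rpl7l1 and Rpl36al lay between 104 and 348 CPM in all libraries. Fau, which encodes a ribosomal protein fused to a ubiquitin-like protein, falls outside the rule by symbol. It was not called in LGR5 or CD166 and was highest in jejunum crypt 2, with 1849.7 CPM.

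Other genes that make or serve ribosomes were counted from lists in the same fit, to be read against the 13.0% of all tested genes called higher in LGR5 and 13.6% in CD166. Of 90 tested ribosome biogenesis factors, 28 were called higher and 1 lower in LGR5 (median log2 0.40) and 23 and none in CD166 (median 0.35). Npm1, which carries pre-ribosomes, was higher in both (log2 0.78 ± 0.19, adjusted p = 0.0097 in LGR5, and log2 0.77 ± 0.19, adjusted p = 0.0108 in CD166). So were Utp20 of the small subunit processome in LGR5 (log2 0.86 ± 0.23, adjusted p = 0.0173) and Nhp2 of box H/ACA particles in CD166 (log2 0.83 ± 0.18, adjusted p = 0.00547). Sbds, which helps to free the large subunit for use, was lower in LGR5 (log2 -0.35 ± 0.10, adjusted p = 0.0212). Of 14 genes of RNA polymerase I, which makes most ribosomal RNA, 4 were called higher in LGR5 and 5 in CD166, among them its largest subunit Polr1a (log2 0.86 ± 0.23, adjusted p = 0.0165 in LGR5). Of 22 for RNA polymerase III, which makes the 5S RNA, 4 were higher and 1 lower in LGR5 (18.2% higher) and 3 and 1 in CD166 (13.6% higher). The 76 mitochondrial ribosomal proteins, which belong to another ribosome, had none called in LGR5 (median 0.00) and 12 called higher in CD166 (15.8%, median 0.25), with Mrpl52 the largest (log2 0.66 ± 0.17, adjusted p = 0.0141).

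Among 17 elongation and ribosome-associated factors, 3 were called higher in LGR5 and 7 in CD166, with none lower (medians 0.34 and 0.36). Gnb2l1, the scaffold protein RACK1 on the small subunit, was higher in LGR5 (log2 0.64 ± 0.17, adjusted p = 0.0159) and in CD166 (log2 0.80 ± 0.17, adjusted p = 0.00511). Eef1b2, an exchange factor for elongation factor 1, was also higher in both (log2 0.71 ± 0.19, adjusted p = 0.0153, and log2 0.78 ± 0.19, adjusted p = 0.00969). Among 38 initiation factors 5 were higher (13.2%) and 1 lower in LGR5 and 8 (21.1%) and none in CD166 (medians 0.22 and 0.25). The shares for initiation factors in LGR5, and for RNA polymerase III and mitochondrial ribosomal proteins in CD166, were thus near those of all genes. Those of elongation and associated factors (17.6%) and RNA polymerase III (18.2%) in LGR5 were not far above. Pabpc1, which binds poly(A) tails, was higher in LGR5 (log2 0.90 ± 0.24, adjusted p = 0.0158), Eif3e in both (log2 0.62 ± 0.14, adjusted p = 0.00872 in LGR5), and Eif6, which keeps the subunits apart, was lower in LGR5 (log2 -0.42 ± 0.13, adjusted p = 0.0342). Of 6 host transcripts of small nucleolar RNAs, Gas5 (log2 0.85 ± 0.23, adjusted p = 0.0157) and Snhg5 (log2 0.90 ± 0.28, adjusted p = 0.0306) were higher in LGR5 and none in CD166.

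In the Myc network, 13 genes, 4 were called higher (30.8%) and 4 lower in LGR5 and 2 (15.4%) and 4 in CD166. Myc was higher in LGR5 (log2 1.25 ± 0.26, adjusted p = 0.0054), and its antagonist Mxd1 was lower in LGR5 (log2 -3.13 ± 0.29, adjusted p = 5.3e-05) and in CD166 (log2 -3.01 ± 0.29, adjusted p = 7.14e-05). Max was also lower in LGR5 (log2 -0.925 ± 0.168, adjusted p = 0.00235) and in CD166 (log2 -1.155 ± 0.169, adjusted p = 0.000712). Mlx was lower in LGR5 (log2 -0.917 ± 0.214, adjusted p = 0.00867), and Mxd3 was higher in CD166 (log2 0.684 ± 0.238, adjusted p = 0.0492). The median of the 13 genes was log2 -0.05 in LGR5 and -0.365 in CD166. Of 21 TOR pathway genes 2 were higher (9.52%) and 1 lower in LGR5, and 1 (4.76%) and 1 in CD166, shares called higher below those of all genes. Of the TOR inhibitor genes, Ddit4 (log2 1.13 ± 0.20, adjusted p = 0.00198) and Sesn2 (log2 0.682 ± 0.204, adjusted p = 0.0265) were higher in LGR5. Sesn1 was lower (log2 -1.44 ± 0.21, adjusted p = 0.000757 in LGR5). Of 12 genes of the p53 response to ribosomal stress, 2 were higher (16.7%) and 1 lower in LGR5 and 1 (8.33%) and 1 in CD166. Cdkn1a, a cell cycle inhibitor, was lower in LGR5 (log2 -2.02 ± 0.22, adjusted p = 0.000124) and in CD166 (log2 -0.65 ± 0.21, adjusted p = 0.0346). The other called genes of this list went the other way. Eda2r was higher in LGR5 (log2 1.301 ± 0.285, adjusted p = 0.00633) and in CD166 (log2 0.828 ± 0.286, adjusted p = 0.0478). Trp53 was higher in LGR5 (log2 0.831 ± 0.214, adjusted p = 0.0139). With any 1 library left out, the number of biogenesis factors called higher ran from 4 to 34 in LGR5 and from 5 to 25 in CD166, and of mitochondrial ribosomal proteins from 0 to 0 and from 0 to 18. Those of initiation factors ran from 0 to 8 and 5 to 9, of elongation and associated factors from 0 to 4 and 2 to 7, of RNA polymerase I from 1 to 6 and 2 to 6, and of RNA polymerase III from 0 to 5 and 1 to 4. In the Myc network they ran from 1 to 5 and 0 to 3, in the TOR pathway from 1 to 4 and 0 to 2, in the p53 list from 1 to 3 and 0 to 1, and among snoRNA hosts from 0 to 3 in both. None of the genes in these 10 lists was called between ileum and jejunum over the populations.

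**Figure D5:**
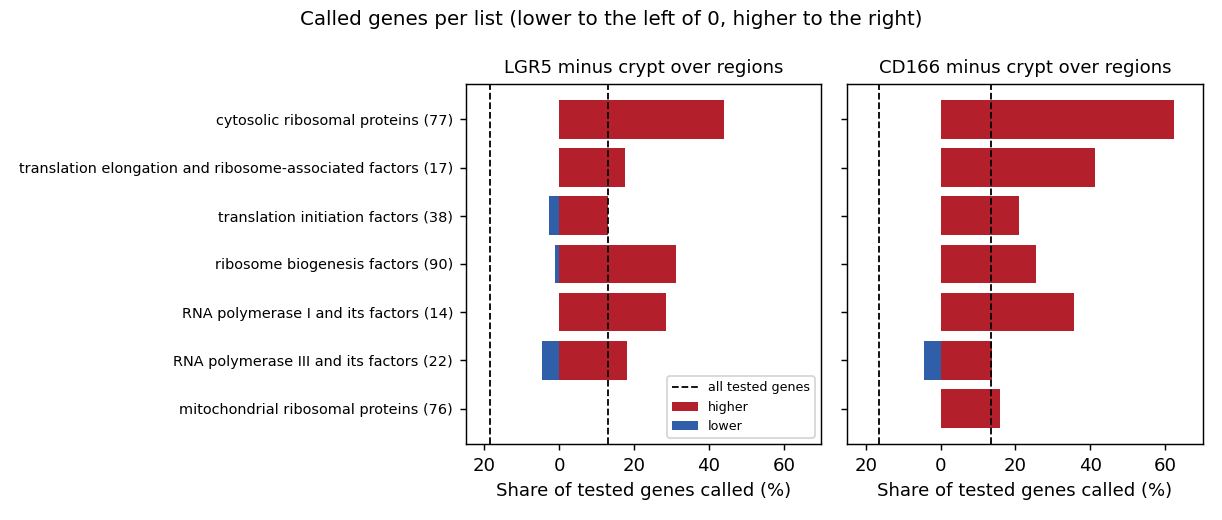
Share of the tested genes of each list (x axis, percent, number tested in brackets) called higher (right of 0) or lower (left of 0) in LGR5 and CD166 against crypt, with dashed lines for all tested genes. The cytosolic ribosomal protein genes have 34 and 48 of 77 called higher, and the mitochondrial ribosomal proteins 0 and 12 of 76.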

How the data were processed

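RNA of 14 libraries was sequenced with TruSeq kits as single-end reads of 50 bases, per the labels' protocols. The authors deposited a table per library of 36401 entries that, although named for RPKM, holds expected counts that are not scaled: 50.6% of values above 0 are whole within 0.001, and totals run from 6295828 to 20380369. The mm9 genome and DESeq are named in the submitters' processing notes, without a step or version. Which aligner, counter and gene models were used is not given in the sources used here. Deposited log2 tables of the same counts were not used.

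Expected counts were rounded and filtered with filterByExpr (minimum count 10, minimum total 15), which kept 14750 genes. edgeR 4.0.16 (R 4.3.3) fitted TMM-scaled counts with glmQLFit (robust) and a mean for each of the 6 groups, and all groups shared 1 estimate of the spread. Adjusted p-values in the text are Benjamini-Hochberg values over all 14750 genes from this fit unless another tool is named, and each standard error was taken as the absolute log2 difference over the square root of F. The members and gene lists were chosen with earlier results of these data known. Members named with values were the 6 largest calls in each direction of a comparison, a set of 16 genes known from the literature, the paralogs, and the 3 most and 3 least variable between group means. From the other lists up to 3 called genes in each direction could be named.

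Alternatives were DESeq2 1.42.0, limma-voom (limma 3.58.1), other scalings and filters, a replicate block, the compared groups alone and leaving out libraries. Same-numbered libraries were taken as unpaired, because the labels do not say that the numbers mark animals. Of 31 such pairs, 10 correlated above 0.1 in their deviations from the group means, which does not settle the pairing. In a group of 2 libraries these deviations mirror each other. The fit was also run on simulated counts with known changes in randomly picked genes. These counts held no outlying library, so the run does not bear on the calls above, and its outcome is not given here. Pseudogene entries were counted and summed per library but were not members, and coordinates of mm9 were not analysed here. Values of 3 genes, 1 of them a member that was left out of the heat map, are not reported here. Transcript lengths and shared windows came from GENCODE M21 (GRCm38), and promoters from RefSeq.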

Additional observations from a re-analysis of the deposited data

Results flagged for a closer look

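The share of counts taken by the ribosomal protein genes differed between the regions in opposite directions in the sorted populations. In LGR5 the ileal mean minus the jejunal mean was -2.24 percentage points, with both ileal libraries (9.14% and 7.07%) below both jejunal ones (10.57% and 10.10%). In CD166 it was 2.14 points, with both ileal libraries (9.97% and 11.23%) above both jejunal ones (7.01% and 9.90%). The difference between these effects was not tested for the share, which has 2 libraries in each group. Per gene the interaction test called no member. Without overlap in both populations, 1 of 77 members and 382 of all 14750 tested genes were lower in ileum LGR5 and higher in ileum CD166.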

How the results depend on the processing

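Member genes called in LGR5 minus crypt over regions, 34 with all libraries, were 21 with no filter, 17 without ileum crypt 3 and jejunum crypt 1, 64 without ileum crypt 1 and jejunum crypt 2, 12 without ileum crypt 2 and 3, 61 without these and jejunum crypt 2, and 12 of 30 where under 50% of windows are shared. Member genes called in CD166 minus crypt over regions, 48 with all libraries, were 31 with the compared groups alone, 26, 68, 22 and 68 without the same sets of libraries, and 19 of 30 members with few shared windows. With any 1 library left out they ran from 6 to 64 and from 19 to 68. With the replicate block 23 and 30 were called, and with crossed numbers of the jejunal sorted libraries 19 and 28. The numbers are not known to pair the libraries. Of all 14750 tested genes, 1393 and 1454 were called higher with the block and 1374 and 1424 with crossed numbers. The main fit had 1914 and 2008. With no filter 1429 of 23460 genes were called higher in LGR5. Without ileum crypt 3 and jejunum crypt 1, 1601 and 1757 of 14714 were, and with the compared groups alone 1348 of 14585 in CD166. DESeq2 called 42 and 54 members, with 2060 and 2140 of all 14750 tested genes higher. For limma-voom it was 35 and 47 members, with 1971 and 2287 of all tested genes higher. With total counts for scaling, 56.2% of all genes called in LGR5 minus crypt were higher, against 41.3% with TMM. Between the regions over the populations 1 member was called without ileum crypt 1, 1 without ileum crypt 1 and jejunum crypt 2, and 2 without the 4 crypt libraries low in Xist. In crypt these counts were 1, 1 and 4, and 1 with DESeq2, and for the interaction 1 and 1. Of all tested genes, 734 of 14454 were called over the populations without ileum crypt 1. Without ileum crypt 1 and jejunum crypt 2 it was 1224 of 14327. For the same fits, 80 and 83 of all tested genes were called in crypt and 15 and 33 for the interaction. In LGR5 the regions had 5 member calls with the compared groups alone. With any 1 library left out the counts ran from 0 to 1 over the populations, in crypt and for the interaction. Rps23: LGR5 minus crypt over regions turned to 0.93 (adjusted p = 0.00588) and Rps23: CD166 minus crypt over regions to 0.94 (adjusted p = 0.00546) without ileum crypt 2, ileum crypt 3 and jejunum crypt 2; the cause was not tested. The difference of 3.76 points in share was 3.27 points over TMM library sizes and 3.77 points with pseudogenes added. Groups of 2 or 3 libraries limit every test, and counts assigned to near-identical copies cannot be checked from these files. The alternatives that left out ileum crypt 2 and 3, these with jejunum crypt 2, or the 4 libraries low in Xist, crossed the block or kept members with few shared windows were chosen after seeing the data.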
